A study of Homo sapiens with 4 samples.

Results

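The transcripts of HLA class I antigen presentation were followed through 4 two-colour arrays of squamous carcinoma cells given miR-489 or miR-504. All non-control spots whose design name was HLA-B, HLA-C, HLA-E, HLA-F, B2M, TAP1, TAP2, TAPBP or PSMB9 were taken, with every probe kept. This gave 21 probes of 9 genes, out of 41000 probes and 30982 gene names on the array. HLA-C and TAPBP had 4 probes each, HLA-E had 3, B2M, HLA-B, HLA-F and TAP2 had 2 each, and PSMB9 and TAP1 had 1 each.

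The arrays compared total RNA of cells carrying an introduced miRNA, labelled with Cy5, with RNA of the same line given a control miRNA, labelled with Cy3. FaDu is a line from hypopharyngeal squamous cell carcinoma and HSC3 is a line from tongue carcinoma, and each is an established line grown in culture without stromal or immune cells. Cells were examined 72 h after transfection. Each line received each miRNA, with 1 array for each of these 4 conditions. No dyes were swapped, so the response to a miRNA and a probe's own dye preference cannot be told apart in any comparison with the control. The design asked which transcripts change when each miRNA is introduced.

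Class I molecules display peptides from inside the cell to T cells. A polymorphic heavy chain pairs with β2-microglobulin, the invariant light chain, and the pair is held by a loading complex in the endoplasmic reticulum until peptide is bound. Peptides are cut in the cytosol by the proteasome, whose catalytic subunits are exchanged for the immunoproteasome subunits under interferon, and are pumped into the reticulum by the TAP transporter. Carcinomas often carry less of this machinery than the epithelium they arise from. HLA-E and HLA-F are non-classical heavy chains, and HLA-E is recognised by receptors of natural killer cells.

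The mature sequences of the transfected miRNAs are shown because they define the treatments. They were taken from RefSeq on GRCh38.p14, with bases 2 to 8, the seed that directs target pairing, in capitals. The labels do not say which arm of miR-504 was introduced, so both are printed.
hsa-miR-489-3p: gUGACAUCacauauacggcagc
hsa-miR-504-5p: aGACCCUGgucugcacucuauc
hsa-miR-504-3p: gGGAGUGCagggcaggguuuc
No 2 of these share a seed. Target sites in the transcripts were not searched for here.

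Promoters were examined because several members carry known interferon elements. RefSeq windows of 300 bases on GRCh38.p14 were given for 8 of the 9 members, with HLA-E the exception. The core of the interferon-stimulated response element (GAAA, 2 free bases and GAAA) was searched on both strands. It occurred in 5 of 8 genes, which had 9 windows between them, and in 3.57% of all 35116 promoters. The first is a count of genes and the second a share of promoters. The windows below hold a match in capitals, 5′ to 3′ on the gene's strand.
HLA-F, chr6:29723268-29723297, plus strand: ctccccagagTTTCTCTTTCtctcccaacc
TAP1, chr6:32853813-32853842, minus strand: ccgctttcgaTTTCGCTTTCccctaaatgg
TAP2, chr6:32838778-32838807, minus strand: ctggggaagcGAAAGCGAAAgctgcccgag
TAPBP, chr6:33314073-33314102, minus strand: ggaggaaagtGAAAGTGAAAggaggaagag
B2M, chr15:44711369-44711398, plus strand: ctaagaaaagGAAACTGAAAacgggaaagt
TAP1, TAPBP and B2M each hold a second match that overlaps the one shown. The TAP1 match starts 128 bases before the transcript start and that of B2M 138 bases before it. The core of the gamma-activated site (TTC, 3 free bases and GAA) was found in TAP1 alone, at another of its starts, and in 7.66% of all promoters. A match is a description of the letters and not evidence of binding.

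Signal intensities had the local background subtracted, and Cy5 was divided by Cy3, taken to log2 and centred on each array's median over probes well above background. Values for the 4 arrays are given in a fixed order, first miR-489 and miR-504 in FaDu and then the same pair in HSC3. A value of 0 is therefore the middle of the array and not equal amounts of RNA, and the medians removed lay between 0.45 and 0.65. Repeated spots of a probe on an array had a standard deviation (SD) of 0.0627 to 0.0727 on the log2 scale, which is technical error only, and the small number of arrays limits the precision of each value. Of the 21 probes, 18 were well above background in both channels on all 4 arrays. The exceptions were 1 of 2 probes each for B2M and TAP2 and 1 of 4 for TAPBP. All 7 squamous epithelial markers present on the array (KRT5, KRT14, KRT17, TP63, EPCAM, CDH1 and SFN) had control signal on all 4 arrays, against 1 of 4 leukocyte markers and 0 of 4 fibroblast markers. The exception among leukocyte markers was CD14, at control signals of 43.5 to 76, and PTPRC, which marks all leukocytes, was not well above background on any array by its brightest probe.

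Of the 11 class I heavy-chain probes, 10 lay above the array median on all 4 arrays, as did TAP1, although among heavy chains 8 did after a loess fit, 4 after normexp and loess, 6 with total-signal scaling and 7 with the deposited ratios. The share of all probes above the median on all 4 arrays was not counted. All heavy-chain probes were in the brightest 2 of 10 groups of fitted probes by control signal. The medians of those 2 groups were above 0 on every array (0.06 to 0.17). Heavy-chain probes may also take up one another's transcripts, so they are not separate observations. B2M lay below the median with both miRNAs and in both lines. In limma's test, with the lines taken as replicates and Benjamini-Hochberg adjustment over 20914 probes, 12 of 18 member probes differed from the control with miR-489, against 57.1% of all probes tested. With miR-504, 9 of 18 did, against 49.6% of all probes. The members' shares were 66.7% and 50%. Of the 12, 9 were higher, against 30.5% of all probes, and 3 lower, against 26.5%. Of the 9 with miR-504, 7 were higher, against 26.2%, and 2 lower, against 23.4%. The first count was 4 without the FaDu miR-489 array, 5 without the HSC3 miR-489 array and 9 without either miR-504 array. The second was 2 without either miR-504 array and 7 without either miR-489 array. With the line as a block, 12 members were called with miR-489 and 6 with miR-504, against 59.5% and 52.9% of all probes. HLA-C A_23_P95917, HLA-E A_24_P326082 and TAPBP A_23_P315336 then missed the threshold with miR-504 (adjusted p = 0.0611, 0.0558 and 0.0591). Where an array was left out, the remaining array of a miRNA was assumed to vary like the others. The labels do not say whether the control RNAs came from separate cultures, so these p-values measure the spread between these arrays, which differ by line.

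**Figure D1:**
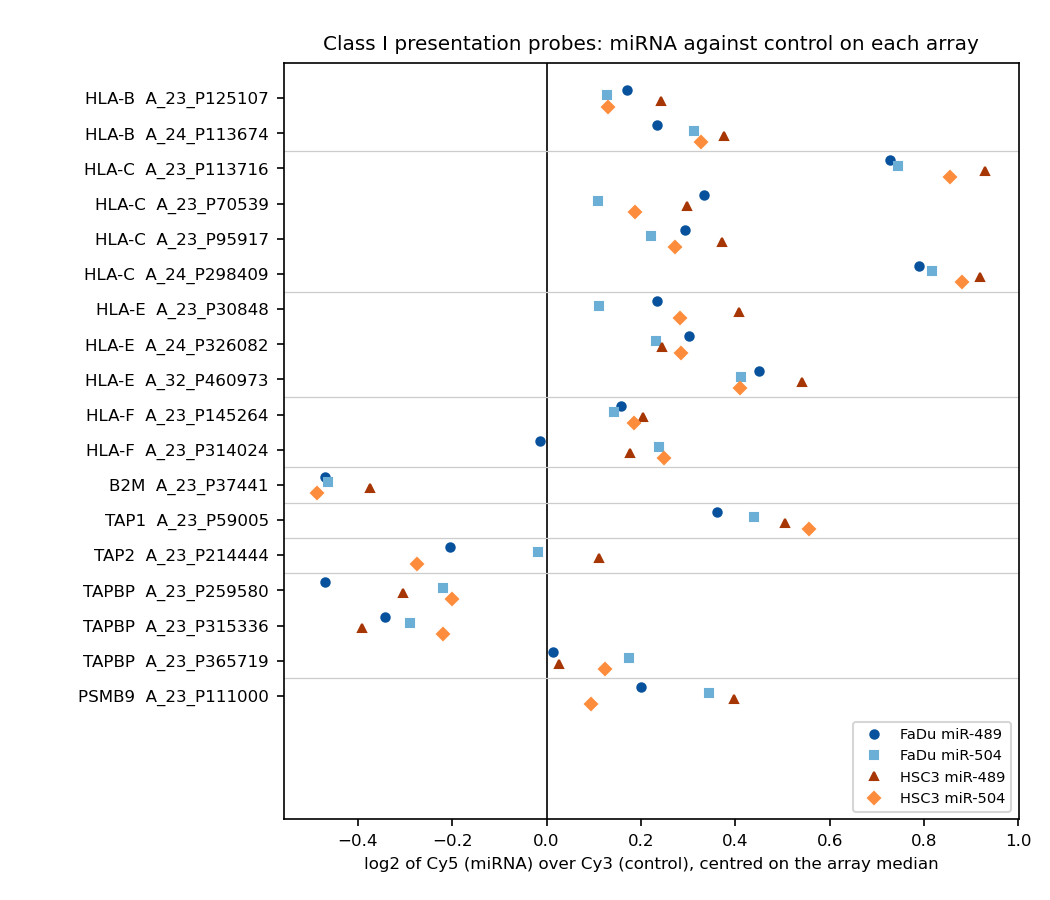
Centred log2 ratio of Cy5 (miRNA) over Cy3 (control) for the 18 member probes fitted in limma, 1 point per array, with 0 the array median. HLA-C probes A_24_P298409 and A_23_P113716 lie between 0.73 and 0.93 on all 4 arrays, and the B2M probe lies between −0.49 and −0.37.

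HLA-C, a classical heavy chain that also serves as a ligand for killer-cell receptors, had the highest ratios of the members. Probe A_24_P298409 was at 0.79, 0.82, 0.92 and 0.88. Its control signals were 28948, 29719, 21646 and 26083, and its Cy5 signals were 74827, 82227, 61386 and 65392. All 4 values lay at 1.73- to 1.89-fold above the array median. The limma estimate was 0.85 (SE 0.0811, adjusted p = 0.00145) with miR-489 and 0.85 (SE 0.0811, adjusted p = 0.00204) with miR-504. This probe remained higher and past the threshold under each of the 14 alternatives tried, at 0.46 to 1.01 with miR-489 and 0.48 to 0.99 with miR-504.

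Probe A_23_P113716, which is also named HLA-C, was printed in 10 spots per array and gave 0.73, 0.74, 0.93 and 0.86, with an SD over spots of 0.0186 to 0.0404. The HSC3 values were thus above the FaDu values for both miRNAs. The estimates were 0.83 with miR-489 (adjusted p = 0.00191) and 0.80 with miR-504 (adjusted p = 0.00278), and limma called it under all 14 alternatives. The other HLA-C probes had lower ratios. A_23_P95917 was at 0.29, 0.22, 0.37 and 0.27 and was called with both miRNAs (adjusted p = 0.0169 and 0.0474), a call kept in 7 and 4 of 14 alternatives. A_23_P70539 was at 0.33, 0.11, 0.30 and 0.19 and passed with miR-489 (adjusted p = 0.0196) but not with miR-504 (adjusted p = 0.166).

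The names and listed positions of these probes were at odds. In the array's own coordinates, whose build is not stated, A_23_P113716 and A_23_P95917 lie 1131 and 21 bases from the HLA-B probe A_24_P113674 and about 85.2 and 86.3 kb from the HLA-C probe A_24_P298409. A_23_P70539 lies 2591 bases from that HLA-C probe. Class I heavy chains are close in sequence, so a probe named for a chain may also take up transcripts of others, and the separate contribution of each gene was not tested.

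HLA-B, the other classical heavy chain among the members, showed smaller ratios. Probe A_24_P113674 was at 0.23, 0.31, 0.38 and 0.33, and its control signal ran from 16794.5 to 30360.5. All 4 values were above 0, by 1.18- to 1.30-fold. It was called with miR-489 (0.30, SE 0.0809, adjusted p = 0.0255) and with miR-504 (0.32, adjusted p = 0.0253), calls kept in 5 and 7 of 14 alternatives, and its sign turned with the deposited ratios, to −0.05 and −0.06. Probe A_23_P125107 was at 0.17, 0.13, 0.24 and 0.13 and did not pass with miR-489 (adjusted p = 0.0673) or miR-504 (adjusted p = 0.211). After an intensity-dependent (loess) fit the latter probe was at −0.07 to 0.04.

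HLA-E, which presents leader peptides of other class I chains, was higher at all 3 of its probes and on all 4 arrays. Probe A_32_P460973 was at 0.45, 0.41, 0.54 and 0.41. It had estimates of 0.50 with miR-489 (SE 0.0774, adjusted p = 0.00489) and 0.41 with miR-504 (SE 0.0774, adjusted p = 0.0104), called in 13 and 9 of 14 alternatives. A_24_P326082 was at 0.30, 0.23, 0.25 and 0.28, and A_23_P30848 at 0.23, 0.11, 0.41 and 0.28. The first of this pair was called with both miRNAs and the second with miR-489 alone (adjusted p = 0.0318, against 0.129 with miR-504), but neither kept its call under loess, and A_23_P30848 was at −0.06 on the FaDu miR-504 array when channels were scaled to equal total signal.

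HLA-F, a heavy chain found on activated cells, was not called with either miRNA. Probe A_23_P145264 was at 0.16, 0.14, 0.20 and 0.18, and its estimates were 0.18 (adjusted p = 0.0941) and 0.16 (adjusted p = 0.127). Probe A_23_P314024 was at −0.01, 0.24, 0.18 and 0.25, so that the FaDu miR-489 array stood below the other 3.

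B2M encodes the light chain shared by all class I molecules. It lay below the array median on all 4 arrays, whereas 10 of 11 heavy-chain probes lay above it on all 4. After normexp and loess, 4 of the 11 heavy-chain probes did. The brightest of 10 groups of fitted probes, which holds B2M, had medians above 0 on every array (0.09 to 0.17). The B2M promoter window carries a pair of overlapping response-element cores. The main B2M probe, A_23_P37441, had control signals of 14399, 16309, 11479 and 13440. Its Cy5 signals were 15568, 18574, 13283 and 13054. The centred log2 ratios were −0.47, −0.46, −0.37 and −0.49, each from 10 spots with an SD of 0.0269 to 0.0562. All 4 values lay close together, at 1.30- to 1.40-fold below the array median. B2M fell by 0.42 with miR-489 (SE 0.0776, adjusted p = 0.00802) and by 0.47 with miR-504 (SE 0.0776, adjusted p = 0.00696). It was lower under all 14 alternatives for both miRNAs and past the threshold in 13 and 12 of them. The raw Cy5 signal of this probe exceeded the Cy3 signal on 3 of the 4 arrays, so its fall is relative to the other probes.

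The second B2M probe, A_24_P740662, was near the detection limit with control signals of 42.5 to 63. It was 2.64- and 1.55-fold lower with miR-489 and miR-504 in FaDu and 2.71-fold lower with miR-489 in HSC3, from 1 spot each. On the HSC3 miR-504 array neither channel was well above background.

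TAP1, a subunit of the peptide transporter, was higher on every array. Its promoter also carries overlapping response-element cores. Its probe A_23_P59005 was at 0.36, 0.44, 0.50 and 0.56, with control signals of 4810, 3399, 9566 and 9940. The range corresponds to 1.28- to 1.47-fold. TAP1 rose by 0.43 with miR-489 (SE 0.0849, adjusted p = 0.00986) and by 0.50 with miR-504 (SE 0.0849, adjusted p = 0.00785), calls kept in 11 and 12 of 14 alternatives. Total-signal scaling (adjusted p = 0.0633), removal of the filter on dim probes (0.0506) and omission of the HSC3 miR-489 array (0.0656) each ended the miR-489 call. Omission of either miR-504 array ended that with miR-504 (adjusted p = 0.0616 and 0.09). The ratios stayed above 0 on all 4 arrays under loess (0.19 to 0.37) and total-signal scaling (0.15 to 0.37).

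TAP2, the partner subunit, had only dim probes. A_23_P214444 had control signals of 40 to 67.5 and ratios of −0.20, −0.02, 0.11 and −0.28, with no call for either miRNA (adjusted p = 0.754 and 0.334). Control signal of A_23_P368067 was not well above background on any array. Its Cy5 signal was detected on 3 arrays, from 1 spot each. The ratios there were 0.37 on FaDu miR-489, −0.81 on FaDu miR-504 and 0.67 on HSC3 miR-489. They rest on control signals of 22.5 to 28 that were not well above background.

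TAPBP encodes tapasin, which bridges the transporter and the empty heavy chain. Its probes disagreed. The bright probe A_23_P365719, with control signals of 2284 to 3690, was at 0.01, 0.17, 0.03 and 0.12 and was not called (adjusted p = 0.836 and 0.157). The dim probes A_23_P259580 and A_23_P315336, with control signals of 61 to 100, were below 0 on all 4 arrays, at −0.47, −0.22, −0.30 and −0.20 and at −0.34, −0.29, −0.39 and −0.22. With miR-489 both passed (adjusted p = 0.0132 and 0.0123), and with miR-504 A_23_P315336 alone did (adjusted p = 0.0427, against 0.0879). Each miR-489 call was kept in 9 of 14 alternatives and the miR-504 call in 4 of 14, and none of the 3 was kept under loess. These dim probes correspond to another transcript record than the bright one. Neither channel of A_23_P360291 was well above background on any array.

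PSMB9, the immunoproteasome subunit that replaces PSMB6, was at 0.20, 0.34, 0.40 and 0.09. All 4 values were above 0 but ranged widely, and its estimates of 0.30 with miR-489 (SE 0.102, adjusted p = 0.054) and 0.22 with miR-504 (SE 0.102, adjusted p = 0.129) did not pass. With loess the HSC3 miR-504 value was −0.04.

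Few member probes were far from the array median. At 1.5-fold, 2 of 20 measurable probes were higher on FaDu miR-489, where 13% of all probes were. On FaDu miR-504 there were 2 of 20, against 10.9%. On HSC3 miR-489 there were 3 of 20, against 12.4%, and on HSC3 miR-504 2 of 18, against 9.77%. On each array these were the HLA-C probes A_24_P298409 and A_23_P113716, joined on HSC3 miR-489 by the dim TAP2 probe A_23_P368067. That probe was counted through its Cy5 signal alone, and with both channels required the count there was 2. Lower by 1.5-fold were 1 of 19, 1 of 19, 1 of 19 and 0 of 18 member probes in the same order, each time the dim B2M probe, where 18.9%, 15.2%, 18.7% and 14.7% of all probes were. No member was 2-fold higher on any array (0 of 20, 20, 20 and 18), where 2.91%, 2.32%, 2.77% and 1.9% of all probes were. The median over the 9 genes, each by its brightest probe, was 0.20, 0.24, 0.25 and 0.25, and that over all genes was −0.03, −0.01, −0.03 and −0.02.

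The ratio depended on signal strength on these arrays, and the members are mostly bright. With the fitted probes ranked by mean control signal into 10 groups of equal size, the median ratio of the dimmest group was −0.34 to −0.23 and that of the brightest 0.09 to 0.17. Of the 18 members, 15 were in the brightest 2 groups and the dim TAP2 and TAPBP probes were in the dimmest 2. After a loess fit that levels this trend, 5 of 18 members were called with each miRNA, 4 higher and 1 lower. These 5 were the same with both miRNAs. Of all probes, 54.2% were called with miR-489 and 47.5% with miR-504 after that fit. Over the 4 arrays the HLA-C probes A_24_P298409 and A_23_P113716 were then at 0.49 to 0.66 and 0.43 to 0.64, TAP1 at 0.19 to 0.37, HLA-E A_32_P460973 at 0.23 to 0.35, and B2M at −0.69 to −0.57. Scaling both channels to equal total signal moved all ratios by −0.21, −0.17, −0.17 and −0.19, which changed the members called higher and lower from 9 and 3 to 3 and 3 with miR-489 and from 7 and 2 to 3 and 3 with miR-504. Over all probes that scaling took the split from 6382 higher and 5552 lower to 3880 and 8048 with miR-489, and from 5486 and 4893 to 3150 and 7527 with miR-504.

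**Figure D2:**
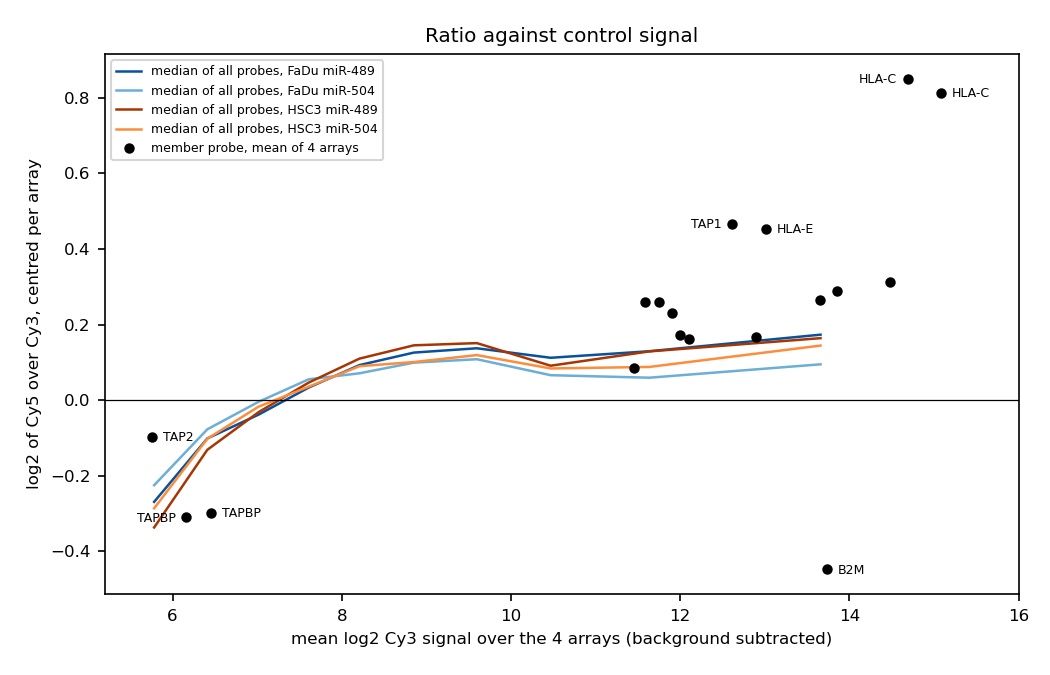
Mean log2 ratio over the 4 arrays against mean log2 control signal for the 18 member probes (points), with lines for the median ratio of all fitted probes in 10 groups by control signal on each array. The lines climb from between −0.34 and −0.23 in the dimmest group to between 0.09 and 0.17 in the brightest. HLA-C probes A_24_P298409 and A_23_P113716, TAP1 and HLA-E A_32_P460973 lie furthest above them, and B2M furthest below. The dim TAPBP probes A_23_P259580 and A_23_P315336 also lie below them, at −0.30 and −0.31.

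No member separated the miRNAs past the threshold. In the direct comparison of miR-489 with miR-504, limma called 0 of 18 member probes, against 1.07% of all probes (223 of 20914). At an unadjusted p under 0.05 there were 0 of 18 members, against 3869 of the 20914 probes. The member differences ran from −0.18 for TAPBP A_23_P259580 to 0.17 for HLA-C A_23_P70539, and the smallest adjusted p was 0.477. The outermost 95% limits over the members were −0.48 and 0.52, so that differences of up to 1.43-fold were within the intervals. For the main HLA-C probe A_24_P298409 the difference was 0.01 (95% interval −0.29 to 0.30), for B2M it was 0.05 (−0.23 to 0.33) and for TAP1 −0.07 (−0.37 to 0.24). These intervals allow small differences in either direction.

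Within a line, the miR-489 value minus the miR-504 value lay between −0.25 and 0.23 in FaDu, with 7 of 18 above 0, and between −0.17 and 0.39 in HSC3, with 12 of 18 above 0. The widest of these, 0.39, belonged to the dim TAP2 probe A_23_P214444, which was at −0.19 in FaDu. PSMB9 also turned, from −0.14 in FaDu to 0.30 in HSC3. HLA-E A_23_P30848 differed by 0.12 in both lines. Each of these is a difference of 2 arrays and has no test of its own.

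**Figure D3:**
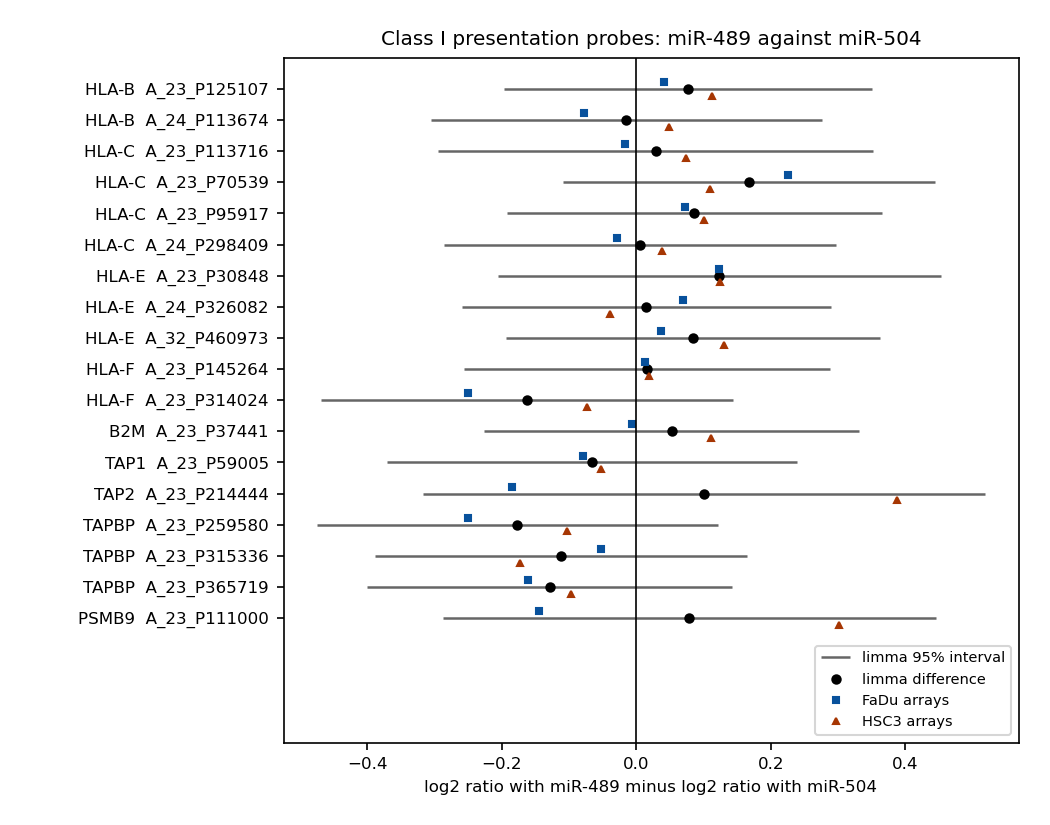
Difference in log2 ratio between miR-489 and miR-504 for the 18 member probes, as the limma estimate with its 95% interval and as the difference of the 2 arrays of each line. All 18 intervals include 0, with limits between −0.48 and 0.52.

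The lines themselves differed at several members in cells given the control miRNA. In these cells limma called centred log2 Cy3 signals lower in FaDu than in HSC3 for HLA-F, PSMB9 and TAP1. It also called 1 of 3 HLA-E probes and 1 of 2 HLA-B probes lower in FaDu. Called higher in FaDu were B2M and 2 of 4 HLA-C probes. The other HLA-B probe was also lower in FaDu (−0.40) but was not called. The labels do not say whether the control RNA on the 2 arrays of a line came from 1 culture or 2, so the spread within a line, and the SE and p-values resting on it, may be technical only. With 2 arrays per line, limma called 9 of 18 member probes, against 48.5% of all probes. Of these, 3 were higher in FaDu, against 28.2%, and 6 lower, against 20.4%. Groups of 2 arrays did not overlap for 14 of 18 members, where they did not for 76.7% of all probes. The members' share was thus near that of the array. In bulk RNA fewer expressing cells and less RNA per cell cannot be told apart.

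HLA-F differed most between the lines. Control signals of probe A_23_P314024 were 1797 and 2641 in FaDu and 8168 and 9811 in HSC3. After centring, HSC3 was 3.53-fold above FaDu (−1.82, SE 0.21, adjusted p = 6.7e-04). The Cy5 channel, which holds the miRNA-transfected cells of the same lines, gave −2.24 with miR-489 and −1.56 with miR-504. Probe A_23_P145264 had control signals of 2308 and 2821 in FaDu and 5727 and 7420 in HSC3, and was 2.19-fold higher in HSC3 (−1.13, SE 0.168, adjusted p = 0.00179). Both probes kept this call under all 9 alternatives.

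The transporter and immunoproteasome genes TAP1 and PSMB9, which lie 487 bases apart on GRCh38.p14 and share an upstream region, were both lower in FaDu. TAP1 had control signals of 4810 and 3399 in FaDu and 9566 and 9940 in HSC3, a 2.07-fold difference (−1.05, SE 0.2, adjusted p = 0.00495), called in 8 of 9 alternatives. PSMB9 was at 2587 and 1784 in FaDu and 6398 and 4794 in HSC3, a 2.22-fold difference (−1.15, SE 0.269, adjusted p = 0.0114), called in 6 of 9. The centred log2 control signals of a line's 2 arrays differed by 0.52 in FaDu and by 0.68 in HSC3 for PSMB9. For TAP1 they differed by 0.48 and 0.20. The higher centred value of both genes was on the miR-489 array in each line. Before centring, the TAP1 control signal in HSC3 was higher on the miR-504 array. Of the other subunits, TAP2 A_23_P214444 was at −0.38 (adjusted p = 0.105) and the bright TAPBP probe at −0.36 (adjusted p = 0.0746).

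Heavy-chain probes disagreed on the line difference. HLA-E A_24_P326082 had control signals of 7535 and 9096 in FaDu and 18468 and 22122 in HSC3, and was 2.10-fold higher in HSC3 (−1.07, SE 0.163, adjusted p = 0.00201). The other HLA-E probes were at −0.00 (adjusted p = 0.989) and 0.30 (adjusted p = 0.16). HLA-B A_23_P125107 was 1.89-fold higher in HSC3 (−0.92, SE 0.238, adjusted p = 0.0171), with control signals of 4037 and 6506 against 10139 and 12490, while A_24_P113674 was at −0.40 (adjusted p = 0.0829). The FaDu controls of A_23_P125107 lay 0.71 apart, the widest such gap among the members in that line.

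For HLA-C, the probes listed near the HLA-C probe A_24_P298409 and those listed near the HLA-B probe split. A_24_P298409 and A_23_P70539 were 1.44- and 1.45-fold higher in FaDu (adjusted p = 0.0215 and 0.0225), whereas A_23_P113716 and A_23_P95917 were at −0.15 and −0.05 (adjusted p = 0.444 and 0.82). B2M was 1.43-fold higher in FaDu (0.52, SE 0.153, adjusted p = 0.0275). These 3 calls in the FaDu direction held in 3 of 9 alternatives for B2M and 4 of 9 for each HLA-C probe. The count of members called was 5, all lower in FaDu, without either FaDu array, and 8 without either HSC3 array. Taken from the Cy5 channel it was 5 of 18, again all lower in FaDu, where 33.3% of all probes were called.

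**Figure D4:**
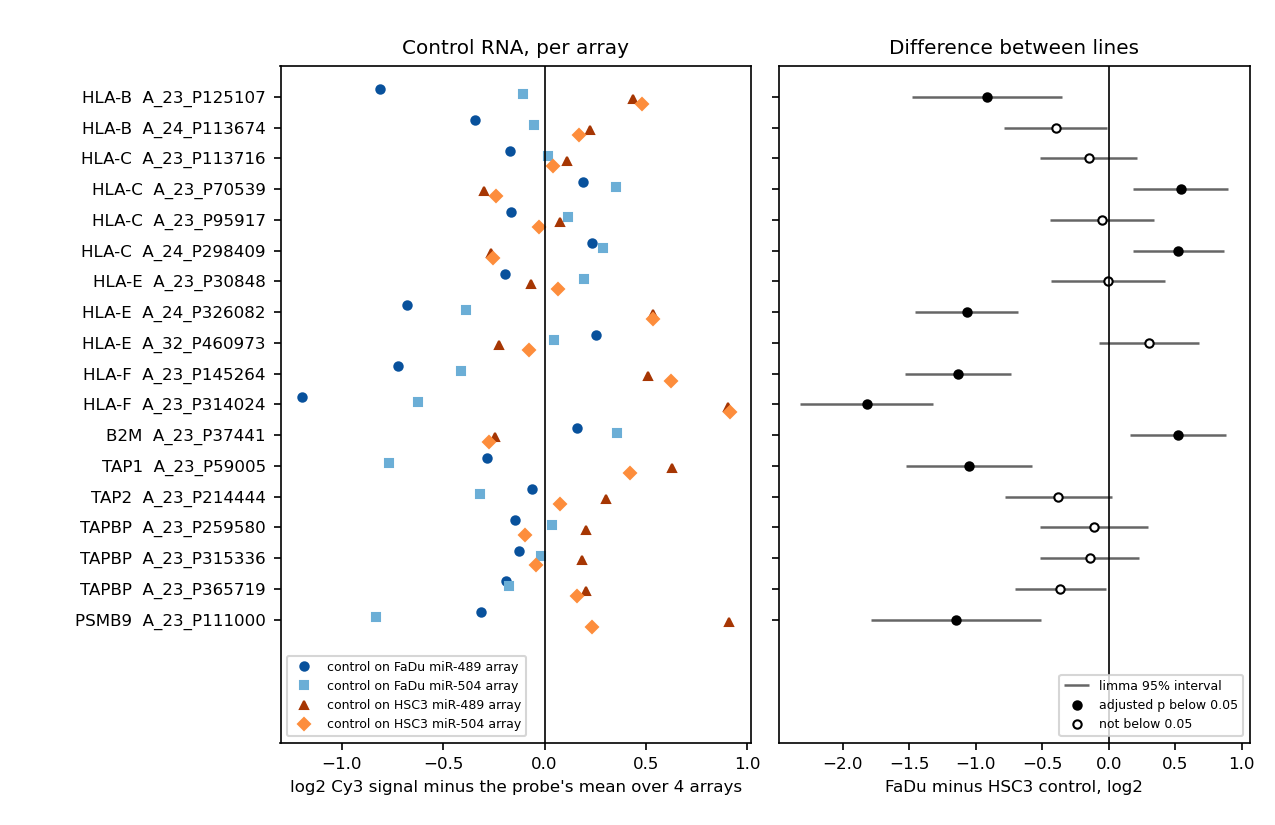
Left, log2 Cy3 (control) signal on each array minus the probe's own mean over the 4 arrays, after centring each array; right, FaDu minus HSC3 with limma's 95% interval, filled where the adjusted p was below 0.05. HLA-F, TAP1 and PSMB9 lie to the left, between −1.82 and −1.05, and B2M and 2 HLA-C probes lie to the right, between 0.52 and 0.54.

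Other genes of the pathway were counted from a list of 48, of which 47 were on the array and 35 could be fitted. Each gene was taken by its brightest probe. With miR-489 18 of 35 were higher and 2 lower, against 30.5% and 26.5% of all probes. With miR-504 14 were higher and 3 lower, against 26.2% and 23.4%. These shares are over every fitted probe, dim ones included, and bright probes ran higher on these arrays. The counts of this list were not repeated after loess or total-signal scaling. The lower genes, named here after their values were seen, were PSMB8 and JAK1 with miR-489 and JAK1, STAT2 and ERAP1 with miR-504. The medians over all 35 genes were 0.24 with miR-489 and 0.21 with miR-504. In the comparison of the miRNAs, limma called 0 of 35. By function, with miR-489 5 of 9 genes of peptide supply were higher and 1 lower, 2 of 5 loading chaperones were higher, 5 of 14 regulators were higher and 1 lower, and 3 of 3 fitted ligands of natural killer cells were higher.

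The proteasome's other catalytic subunits were measured beside PSMB9. The other immunoproteasome subunits, PSMB8 and PSMB10, are also named here after their values were seen. PSMB8 was at −0.59, 0.25, −0.35 and 0.06, below 0 with miR-489 and above 0 with miR-504 in both lines. It fell by 0.47 with miR-489 (SE 0.101, adjusted p = 0.0131) and had an estimate of 0.15 with miR-504 (adjusted p = 0.25), and the difference between the miRNAs, −0.62, did not pass (adjusted p = 0.124). PSMB10 was at 0.36, 0.62, 0.19 and 0.50 and was called higher with both miRNAs (adjusted p = 0.0435 and 0.00604). Of the constitutive subunits, PSMB6 was at 0.39, 0.44, 0.48 and 0.42 and was called with both miRNAs (adjusted p = 0.00708 and 0.00891). PSMB5 was at 0.34, 0.03, 0.28 and 0.10, with a call for miR-489 alone (adjusted p = 0.0214), and PSMB7 at 0.12, 0.02, 0.35 and 0.26 with no call. The subunit that PSMB9 replaces therefore had ratios no lower than those of PSMB9 itself.

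Among regulators, IRF9 was the only gene of the list at least 2-fold higher. IRF9, the DNA-binding part of the complex that carries type I interferon signals, was at 1.02, 1.52, 1.27 and 1.17, with control signals of 192 and 203.5 in FaDu and 455 and 460 in HSC3. It rose by 1.15 with miR-489 (SE 0.12, adjusted p = 0.00175) and by 1.35 with miR-504 (SE 0.12, adjusted p = 0.00178). In the controls IRF9 was lower in FaDu than in HSC3 (−0.99, adjusted p = 0.0025). Of the 35 fitted genes of the list, limma called 5 higher in FaDu controls and 3 lower. PSMB10 was among those higher (1.64, adjusted p = 4.0e-04). Over all probes 28.2% were called higher in FaDu and 20.4% lower. IRF1, a direct activator of class I genes, was at −0.23, 0.20, 0.04 and −0.30, and NLRC5, the class I transactivator, at −0.16, 0.11, 0.05 and −0.06. Neither was called in any of the 4 comparisons. The NLRC5 probe, the brightest of 3, was dim, with control signals of 69 to 112.

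Of the other class I chains, each by its brightest probe, 2 of 3 fitted were higher with miR-489, against 30.5% of all probes. With miR-504 it was 1, against 26.2%. HLA-G, named here after its values were seen, had its brightest of 3 probes at 0.78, 0.83, 0.84 and 0.80. These values were within the range of the HLA-C probes A_24_P298409 and A_23_P113716. The control signals of this HLA-G probe were 24830, 27118, 22174 and 24900, near those of A_24_P298409. Whether it takes up transcripts of other class I chains was not tested, so its ratios cannot be assigned to HLA-G alone. Class II genes, which serve antigen presentation by immune cells, gave little signal, with control signal on all 4 arrays for 1 of 10 and on none for 4 of 10. On the HSC3 miR-504 array, the class II chain HLA-DQA1 and the class II transactivator CIITA were at −1.12 and −1.16, at control signals of 44 and 36.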

How the data were processed

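The authors deposited scanner output of 4 two-colour arrays on 1 slide and 1 scan, made with Feature Extraction 9.5.3.1 per the file headers. It holds median and mean spot intensity and local background without normalisation, a log10 ratio after the software's own LOWESS dye normalisation (identical to the deposited value table), and 0 or 1 marks for background, outliers and saturation. The study's methods name another scanner and software, so the files were read by their headers. Following those methods, each spot's median intensity minus its local background gave a log2 ratio of Cy5 over Cy3, centred per array. Between 118 and 137 outlier spots per array were left out, and saturated spots numbered 0. A lower call needed Cy3, and a higher call Cy5, well above background.

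limma 3.58.1 in R 4.3.3 was fitted to probes with Cy3 well above background on all 4 arrays, and tested on simulated data. The miRNA comparisons took the lines as replicates. The line comparison used centred log2 Cy3 signals. Adjusted p-values below 0.05 were calls. Alternatives changed the background, scaling, filter, threshold, line block and array set. Probe names are those of the array design. The members and lists were chosen with earlier results of these data known. All members were named, and other pathway genes where at least 2-fold changed, called between the miRNAs, or on a short list of regulators (IRF1 and NLRC5 among them) and proteasome counterparts (PSMB5, PSMB6, PSMB7). Of that list, 1 gene is not reported here.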

Additional observations from a re-analysis of the deposited data

Results flagged for a closer look

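A pair of member probes had opposite signs in the lines with miR-489, with 1 array per line. TAP2 A_23_P214444 was at −0.20 in FaDu and 0.11 in HSC3, so that FaDu lay −0.32 from HSC3, at control signals of 40 to 67.5. HLA-F A_23_P314024 was at −0.01 in FaDu and 0.18 in HSC3, a difference of −0.19. Neither difference was tested, because each line has 1 array for miR-489.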

How the results depend on the processing

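Over the 4 arrays, in the order miR-489 and miR-504 in FaDu and then in HSC3, the median of the member genes was 0.34, 0.39, 0.40 and 0.36 without background subtraction, 0.059, 0.15, 0.12 and 0.0454 with loess, 0.0223, 0.13, 0.0742 and 0.0145 with normexp and loess, −0.00825, 0.0667, 0.0713 and 0.0628 with total-signal scaling and −0.0596, 0.16, 0.0269 and 0.0293 with the deposited ratios. On HSC3 miR-489 the mean over a gene's probes gave 0.39. Member probes at least 1.5-fold higher, from 2, 2, 3 and 2, became 1, 0, 3 and 1 with loess, 0, 0 and 0 with normexp and loess on all but HSC3 miR-489, 0 and 1 with total-signal scaling in FaDu, 1, 0, 1 and 0 with the deposited ratios and 0 on each array at 2-fold. Those lower, from 1, 1, 1 and 0, became 2 on FaDu miR-489 and 1 on HSC3 miR-504 with loess, 1 on HSC3 miR-504 with normexp and loess, 0 on FaDu miR-504 with normexp, 3, 2 and 1 on all but HSC3 miR-489 with total-signal scaling, 2, 2, 2 and 1 with the deposited ratios, 2 and 1 on the miR-504 arrays without the filter on dim probes, and 0 on FaDu miR-504 at 2-fold.

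Members called with miR-489, from 12, were 5 with loess, 5 with normexp and loess, 6 with total-signal scaling, 5 with the deposited ratios, 4 without the filter and 4 to 9 with an array left out. With miR-504, from 9, they were 18 without background subtraction, 5 with loess, 5 with normexp and loess, 4 with the deposited ratios, 4 without the filter and 2 to 7 with an array left out. Between the lines, from 9, they were 5 with Cy5, 3 without the filter and 5 to 8 with an array left out. Between the miRNAs they were 0 under all alternatives. Shares of all probes called with miR-489 and miR-504 were 54.2% and 47.5% with loess and 55.3% and 50% with normexp and loess. They were 57% and 51.1% with total-signal scaling and 56.3% and 49.8% with the deposited ratios. Without the filter they were 32.8% and 23.1%, and without background subtraction 58% with miR-504. Between the lines the share was 33.3% with Cy5 and 15% without the filter. No share is given where a group kept 1 array. HLA-B A_24_P113674 turned to −0.0539 with miR-489 and −0.0588 with miR-504 with the deposited ratios. The causes of these shifts were not tested, except that the filter's removal adds dim probes to the test.

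Over all probes, the 223 calls between the miRNAs were 663 with normexp, 498 without background subtraction, 347 with loess, 782 with normexp and loess, 390 with the deposited ratios, 558 with the line as a block and 0 without the filter or with any array left out. The labels number no replicates, but each line received both miRNAs and so pairs the arrays. With the line as a block, 12 members were called with miR-489, against 59.5% of all probes, and 6 with miR-504, against 52.9%. Between the miRNAs 0 members were then called, against 2.67% of all probes.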
